A study of Homo sapiens with 12 samples.

Results

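FOXA1 is a forkhead transcription factor that binds nucleosomal DNA and opens chromatin. In prostate luminal cells it binds mainly at enhancers, where it helps the androgen receptor reach its sites, and prostate cancer cells depend on it. The sites described here are the 1000 strongest FOXA1 sites that were called in every FOXA1 library of LNCaP cells, an androgen-responsive line from a prostate cancer metastasis. They were chosen from peak lists in the human genome build hg19. Peaks of the 8 FOXA1 libraries that shared at least 1 base were merged into 140968 regions, of which 24242 held a peak in all 8 libraries and 23704 of those lay on the 22 autosomes. Leaving out 10 autosomal regions that overlapped an HA peak of a control library without HA-tagged protein left 23694 eligible regions. The 1000 with the highest mean normalized tag count over both DMSO libraries are the strong sites, and the other 22694 eligible regions are the comparison. A normalized tag count is the number of sequenced tags in a peak, scaled by the authors to a library of 10000000 tags.

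The study comprised 12 ChIP-seq libraries of LNCaP cells. For the 8 FOXA1 libraries, treatment lasted 7 days and used DMSO (the solvent control), EPZ-6438 at 1 uM, P5091 at 3 uM or both drugs at these doses (the combination), with 2 replicates per group. EPZ-6438 inhibits the Polycomb methyltransferase EZH2, and P5091 inhibits the deubiquitinase USP7; the series title names Polycomb and BUB3/USP7 complexes as regulators of FOXA1 protein stability. For the 4 HA libraries, infected cells were taken at 5 days and carried the vector control pGIPZ, the FOXA1 knockdown shFoxA1, shFoxA1 with HA-tagged wild-type FOXA1 (WT), or shFoxA1 with HA-tagged K295A, in which alanine replaces a lysine of FOXA1. The HA conditions had 1 library each, so their values have no replicate check. WT and K295A are introduced proteins in cells with knocked-down endogenous FOXA1, and their protein levels were not measured in these files. Whether the 2 replicates of a group were grown as separate cultures is not stated in the labels. A p-value here therefore reflects only how far these libraries spread, which may be technical.

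The FOXA1 libraries held 12299238 to 22589685 tags and 30811 to 84423 peaks. Combination replicate 1 stood apart, with 5.26% of its tags in peaks, where the other 7 libraries had 18.9% to 21.2%. Fragment lengths were 274 to 278 bases in replicate 1 libraries and 216 to 230 bases in replicate 2 libraries, so the replicate number is also a technical split. Peak sizes in replicate 1 were 365 (DMSO), 363 (EPZ-6438), 356 (P5091) and 279 bases (combination). In replicate 2 they were 274 to 296 bases. Tag counts were therefore taken over unequal widths. The HA libraries held 11640056 to 13694090 tags, with 97120 peaks for WT, 81607 for K295A, 982 for pGIPZ and 971 for shFoxA1. Nearby genes and DNA motifs of the sites were not analysed here.

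The DMSO means that chose the sites ran from 123.45 to 719.25 with a median of 152.9, while the other eligible regions had a median of 37.4. The limit is not a natural break. The last 3 sites inside it had DMSO means of 123.55, 123.5 and 123.45, and the first 3 regions outside it had 123.4, 123.4 and 123.35. The site at rank 1000, chr13:43127753-43128156, had tag counts of 138.9 and 108 in the DMSO libraries, and the first region outside, chr3:45698305-45698673, had 132.4 and 114.4. The replicates of both regions differed by far more than these steps. Ranked on DMSO replicate 1 alone, 118 of the 1000 sites would not have been chosen, and ranked on replicate 2 alone, 164 would not.

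The strongest site was chr2:242032793-242033166. In replicates 1 and 2 it had tag counts of 768.6 and 669.9 (DMSO), 540.5 and 453.7 (EPZ-6438), 658.8 and 519.3 (P5091) and 183.8 and 424.6 (combination). It ranked first among the eligible regions in each of the 8 libraries. Next came chr17:77809855-77810225, with 540.4 and 503.3 in the DMSO libraries, and chr15:69886978-69887350, with 573.3 and 435.4. The fourth strongest site lies on chromosome 8. The remaining 6 of the strongest 10 were chr2:220263528-220263893, chr1:145246165-145246541, chr17:79367737-79368102, chr16:2438805-2439213, chr1:156441307-156441681 and chr1:204053387-204053807, with DMSO means between 382.5 and 429.95. The order among these was not stable between replicates. For example, chr1:145246165-145246541 ranked 13th in DMSO replicate 1 and 4th in replicate 2.

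The sites stayed far above the other regions under each drug. Their median tag count in replicates 1 and 2 was 163.8 and 145.1 (DMSO), 135.5 and 125.6 (EPZ-6438), 160.5 and 133.8 (P5091) and 49.4 and 118.4 (combination). In the same order, the other eligible regions had medians of 39.5 and 35.4, 34.1 and 37.4, 37.2 and 36.3, and 15 and 35.5. The low combination replicate 1 values fell on both kinds of region. The share of tags in peaks, which is 1 value per library, was also low there, at 5.26%. The plot of tag counts by library shows that the middle 50% of the sites lay above the median of the other regions in every library. The weakest site of a library fell to 17.5 in combination replicate 1 and to between 39.5 and 89.4 in the other 7. These 1000 sites made up 1.18% to 1.46% of the peaks of the 7 libraries other than combination replicate 1 and held 6.24% to 8.75% of the tags in them. In combination replicate 1, which had fewer peaks, the shares were 3.25% and 10.1%.

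**Figure D1:**
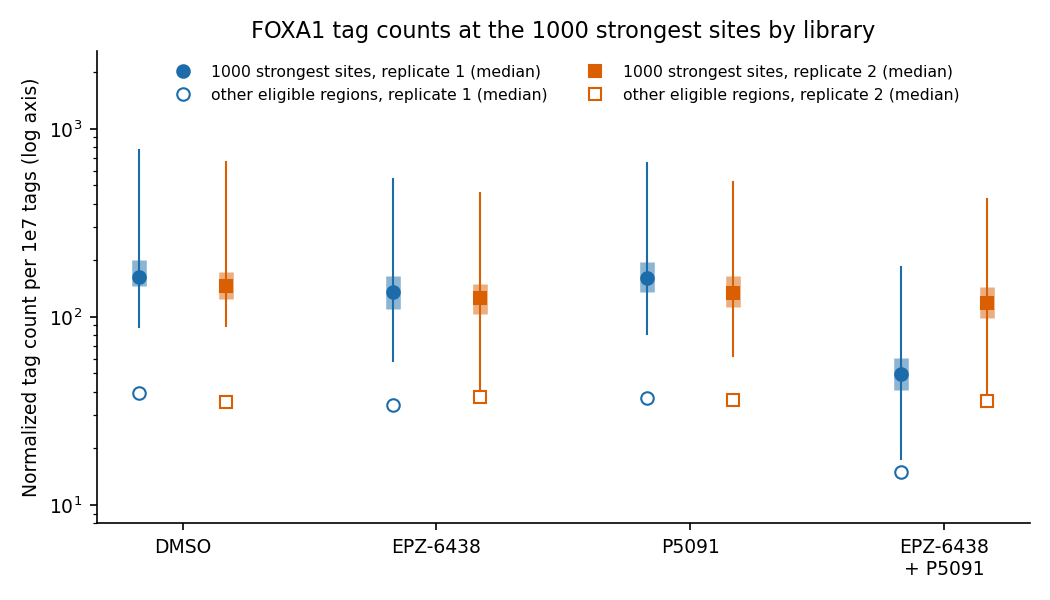
Normalized FOXA1 tag count per 10000000 tags (log axis) by treatment and replicate. Filled markers are medians of the 1000 strongest sites, thick bars their quartiles and thin lines their full range, and open markers are medians of the other 22694 eligible regions. Combination replicate 1 is lower for both kinds of region.

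Most sites were also among the strongest in the libraries that did not choose them. Of the 1000, 730 and 704 were in the strongest 1000 eligible regions of the EPZ-6438 libraries, 811 and 735 of the P5091 libraries, and 697 and 692 of the combination libraries. A core of 423 was in the strongest 1000 of all 6 treated libraries, or 449 when combination replicate 1 was left out. In the strongest 2000 of all 6 were 740 sites, and 22 sites were in the strongest 1000 of no treated library. Membership of this core followed DMSO rank. Of the strongest 100 sites, 97 belonged to the core, and of the sites ranked 901 to 1000, 4 did. Sites ranked 901 to 1000 lie next to the limit of 1000 by the rule, where a small shift can be enough to leave the core. Ranked on the mean of the 6 treated libraries instead, 834 of the 1000 sites would have been chosen.

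Within each replicate number, the tag counts with drug are set beside those with DMSO as a description, since DMSO values chose the sites and a site chosen as high in DMSO tends to be lower elsewhere. On the scale of log2 (tag count + 1), the median site differed from DMSO by -0.32 and -0.25 with EPZ-6438, by -0.06 and -0.13 with P5091, and by -1.76 and -0.31 with the combination. The other eligible regions differed by -0.19 and 0.06, -0.07 and 0.04, and -1.32 and -0.01. With P5091, all 1000 sites were within 2-fold of DMSO in both replicates, beside 98.8% and 98.2% of the other eligible regions. With EPZ-6438, 987 and 986 sites were, beside 94.8% and 94.1% of the other regions. With the combination, 14 sites in replicate 1 and 978 in replicate 2 were, beside 29.6% and 93.5% of the other regions.

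The contrasts between drugs do not compare DMSO values and were tested. They are not free of DMSO, because the DMSO libraries share in the spread of the main single-site fits. The sites were also chosen on DMSO values, and the part of that choice in these contrasts was not tested. All eligible regions had to be called in every FOXA1 library, combination replicate 1 included. The part of that filter was not tested either. The gap between the sites and the other eligible regions is the difference of their median log2 (tag count + 1) within 1 library. In replicates 1 and 2 it was 1.96 and 1.72 (EPZ-6438), 2.08 and 1.85 (P5091) and 1.66 and 1.71 (combination), beside 2.02 and 2.00 (DMSO). The EPZ-6438 libraries and the P5091 libraries overlap, because replicate 1 was higher than replicate 2 in both groups. Within a replicate number, the gap was smaller with EPZ-6438 than with P5091 by 0.12 in replicate 1 and by 0.13 in replicate 2. Both combination libraries were below both P5091 libraries and both EPZ-6438 libraries. The added 1 lowers the gap most in a library of low tag counts: without it, the gap was 1.72 and 1.74 with the combination and 1.99 and 1.75 with EPZ-6438, in the same order.

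**Figure D2:**
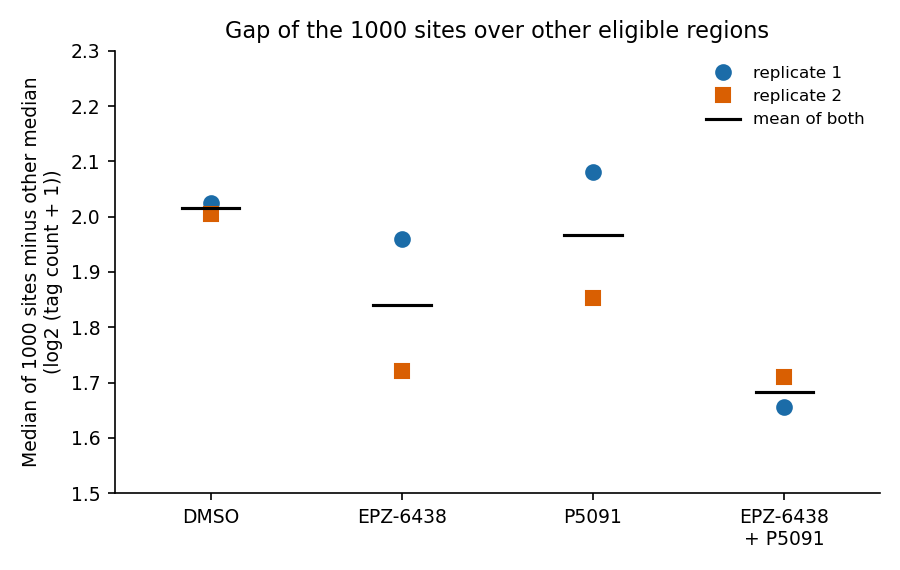
Gap between the 1000 strongest sites and the other eligible regions, as the difference of median log2 (tag count + 1), by treatment. Each marker is 1 library and each line is the mean of 2 replicates; the axis starts at 1.5. Both combination libraries lie below every other library, at 1.66 and 1.71.

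The exact permutation test of these whole-list values could not reach 0.05, since its smallest two-sided p for 2 libraries against 2 is 0.333. The exact sign-flip test of 2 within-number differences cannot go below p = 0.5. The gap was 1.84 ± 0.17 (SD, n = 2) with EPZ-6438, 1.97 ± 0.16 (SD, n = 2) with P5091 and 1.68 ± 0.04 (SD, n = 2) with the combination. The exact permutation p was 0.667 for EPZ-6438 against P5091, and 0.333 for the combination against each single drug. After Benjamini-Hochberg adjustment over the 9 such tests made, the adjusted p of these exact permutation tests was 0.667 and 0.429. The median log2 tag count of the sites differed by -0.17 between EPZ-6438 and P5091 (-0.24 in replicate 1 and -0.09 in replicate 2). That difference was -0.04 without P5091 replicate 1 and -0.30 without P5091 replicate 2. The median of the sites differed by -0.76 between the combination and EPZ-6438 and by -0.93 between the combination and P5091. The last of these was -1.68 in replicate 1 and -0.18 in replicate 2, so 1 library set most of it. The difference between the combination and EPZ-6438 was likewise -1.44 in replicate 1 and -0.08 in replicate 2.

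The sites lay at one end of a gradient over DMSO rank. All eligible regions were put in bins of 1000 by DMSO rank and the median of each library over the 24242 tested regions was subtracted. Between EPZ-6438 and P5091, the median centred difference was -0.13 and -0.15 in replicates 1 and 2 at the 1000 sites, and -0.12 and -0.12 in the next 1000 regions. It was 0.30 and 0.25 in the last 694 regions. Between the combination and P5091 it ran from -0.40 and -0.13 at the 1000 sites to 0.85 and 0.24 in the last bin. Between the combination and EPZ-6438 the gradient appeared in replicate 1, from -0.26 to 0.57, whereas replicate 2 ran only from 0.01 to 0.03. Every eligible region had to be called in combination replicate 1, which had the fewest peaks (30811). The last bin had a median DMSO mean of 13.1, and the part of this filter in the gradient was not tested. The bins are also ordered by the DMSO values that chose the sites. Over the 1000 sites, the same-number DMSO library correlated at r = 0.90 and 0.86 with P5091, 0.79 and 0.75 with EPZ-6438 and 0.66 and 0.72 with the combination, in replicates 1 and 2; the part of this ordering in the gradient was not tested. For the strongest 1000 eligible regions of the WT HA library, which include 549 of the 1000 sites and were also called in both DMSO libraries, the gap was 1.59 and 1.57 with EPZ-6438 and 1.77 and 1.72 with P5091.

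**Figure D3:**
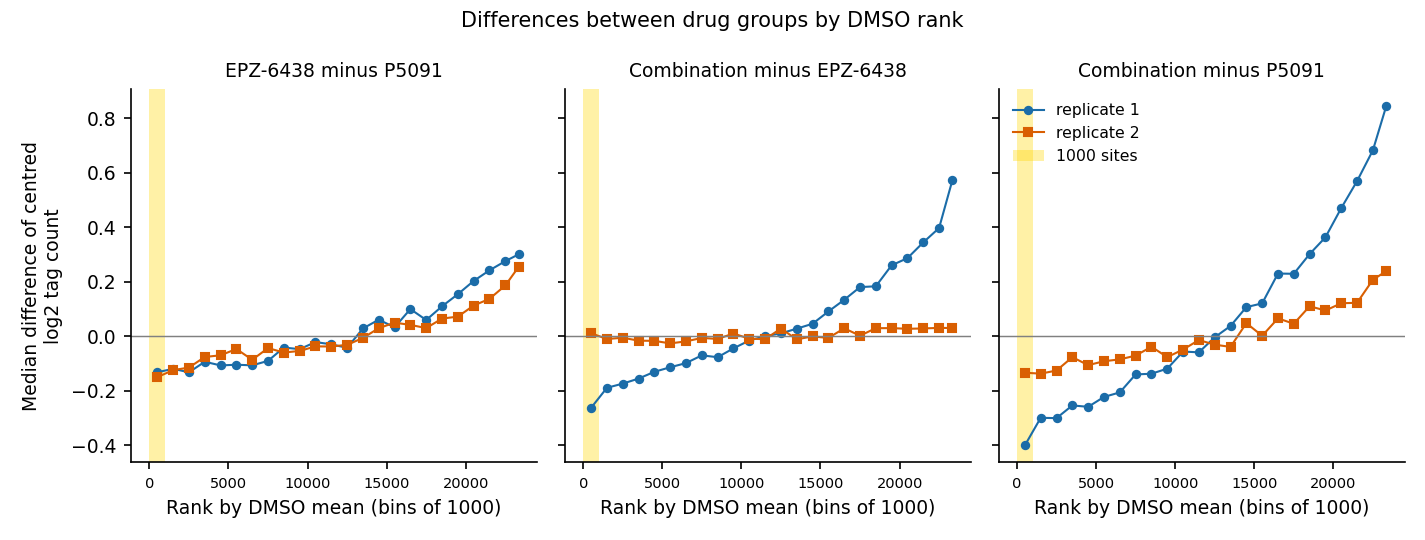
Median difference of centred log2 tag count between drug groups (y) in bins of 1000 eligible regions ordered by DMSO mean (x; rank 1 is strongest), for replicates 1 and 2. The shaded bin holds the 1000 strongest sites; EPZ-6438 minus P5091 runs from -0.13 and -0.15 there to 0.30 and 0.25 in the last bin.

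Single sites were tested with limma on log2 (tag count + 1) over all 24242 regions called in all 8 libraries, with Benjamini-Hochberg adjustment. None of the 1000 sites passed an adjusted p of 0.05 in any of the 3 contrasts between drugs, against a background of 0% of tested regions in each. At an unadjusted p under 0.05 there were 0 sites for EPZ-6438 against P5091 (116 of all regions), 30 for the combination against EPZ-6438 (850) and 235 for the combination against P5091 (2421). Without combination replicate 2, where combination replicate 1 stands alone, 986 sites were called lower than with EPZ-6438 and 999 lower than with P5091, among 15640 and 16001 of the 24242 regions called lower. Without combination replicate 1, no site and no other region was called. edgeR on whole tags also called 0 of the sites in each contrast.

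Libraries with the same replicate number varied together, with combination replicate 1 as an exception. Over the sites it correlated at Pearson r = 0.66 to 0.72 with replicate 1 libraries and at 0.69 to 0.78 with replicate 2 libraries. A further fit took the replicate number as a block after subtracting the library median (centring), for this library too. In that fit of the combination against P5091, 26 of the 1000 sites were lower and 0 were higher, against a background of 0.846% of regions called (0.326% higher and 0.520% lower). These 26 were among 126 regions called lower in all. The DMSO values that chose the sites correlated more with P5091 than with the combination. The part of that choice in this direction was not tested. For EPZ-6438 against P5091, 1 site was called lower and 0 higher (background 0.0330%, with 0.00825% higher and 0.0248% lower), and for the combination against EPZ-6438 none was (background 0%; 81 sites and 1291 of all regions at an unadjusted p under 0.05). The count of 26 depended on each library of the contrast. Leaving out P5091 replicate 1 gave 0 sites (0 of all regions in either direction), leaving out P5091 replicate 2 gave 1 (14), leaving out combination replicate 1 gave 1 (27) and leaving out combination replicate 2 gave 107 (816). With quantile normalization in place of centring it was 2 (24), and with edgeR and the same block it was 17 (145).

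The site called in both contrasts with P5091 was chr3:176477688-176478096, the 81st strongest. It had tag counts of 255.2 and 202.6 (DMSO), 97.8 and 63.4 (EPZ-6438), 232.2 and 122.3 (P5091) and 37.5 and 52.9 (combination). Both EPZ-6438 values and both combination values lay below both P5091 values. The change was -1.03 ± 0.21 (SE) on the log2 scale for EPZ-6438 against P5091 (limma with block and centring, adjusted p 0.0319) and -1.22 ± 0.21 for the combination against P5091 (adjusted p 0.000735). Without block and centring, the same changes were -1.09 ± 0.57 and -1.90 ± 0.57, with limma adjusted p of 1.00 and 0.441.

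Other sites of that group show the range of levels and falls. At chr6:43667327-43667721, the site with the lowest mean rank over the treated libraries, the tag counts were 161.6 and 104.5 (DMSO), 98.7 and 45.5 (EPZ-6438), 163.1 and 67.2 (P5091) and 17.5 and 48.9 (combination). Its change between the combination and P5091 was -1.13 ± 0.25 (limma with block and centring, adjusted p 0.0208). At chr16:79921340-79921746, the 26th strongest site, the counts were 337.1 and 287.9 (DMSO), 159.8 and 141.5 (EPZ-6438), 262.9 and 239.1 (P5091) and 57.5 and 133.4 (combination), a change of -0.83 ± 0.18 (adjusted p 0.0177). The smallest fall was at chr15:69886978-69887350, the third strongest site, at 606.7 and 382.5 (P5091) and 148.8 and 264.4 (combination), a change of -0.60 ± 0.16 (adjusted p 0.0427). The 26 sites lay on 13 chromosomes, had a median DMSO rank of 551 and each overlapped an HA peak of both proteins.

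Some sites were higher with EPZ-6438 than with P5091 without passing the test. At chr9:138285435-138285803 the counts were 168.2 and 127.7 (EPZ-6438) and 118.1 and 105.9 (P5091). At chr12:92539857-92540222 they were 219.1 and 137.4 (EPZ-6438) and 152.6 and 119.2 (P5091). These had the smallest p of the sites with higher values under EPZ-6438, and their limma adjusted p with block and centring was 0.534 each. Against EPZ-6438, the combination had its smallest p at chr12:31141747-31142168, with 21.9 and 63.1 beside 135.5 and 91.1, and at chr10:22375608-22376015, with 34.4 and 101.0 beside 152.3 and 145.5, and neither passed (adjusted p 0.579 each without block and centring and 0.851 each with them). Low mean treated ranks were also found at chr5:39284693-39285078, at 167.5 and 120.2 (DMSO) and 20.6 and 52.1 (combination), and at chr17:71573293-71573662, at 166.7 and 105.7 (DMSO) and 31.9 and 39.5 (combination). The chr17 site and chr10:22375608-22376015 were among the 26 sites called lower for the combination against P5091 with block and centring.

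HA-tagged FOXA1 was bound at nearly every site, with or without the K295A change. A WT HA peak overlapped 998 of the 1000 sites (99.8%, exact 95% binomial interval 99.3% to 99.98%) and a K295A peak overlapped 999 (99.9%, 99.4% to 99.997%). Among the other eligible regions, 91.0% overlapped WT and 90.4% overlapped K295A. In the next 1000 regions by DMSO rank both shares were 99.5%, and in the last 694 they were 62.1% and 59.9%. These intervals cover counting error only, and the shares moved with tag count along the whole DMSO ranking. By the rule, no site overlapped a peak of the pGIPZ or shFoxA1 control.

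The level of HA-tagged protein at the sites was also alike for both proteins. The median HA tag count was 88.2 for WT and 85.1 for K295A at the sites, beside 25.9 and 25.6 at the other eligible regions with a peak. The K295A over WT ratio had a median of -0.02 on the log2 scale at the 998 sites with both peaks, with an interquartile range from -0.18 to 0.14 and an SD over sites of 0.25. At the other regions the median was -0.04 and the SD 0.42. The ratio was more than 2-fold higher at 1 site and more than 2-fold lower at 0 sites, and 97.7% of sites were within 1.5-fold. In the next 1000 regions by DMSO rank, 992 had both peaks. Of these, 2 were more than 2-fold higher, 0 were more than 2-fold lower, and 93.2% were within 1.5-fold. Among the other eligible regions with both peaks, 97.8% were within 2-fold and 83.6% within 1.5-fold. With 1 library each, no test of WT against K295A was made. Across the sites, the log2 HA tag count correlated with the log2 DMSO mean at Pearson r = 0.60 for WT (998 sites) and 0.62 for K295A (999 sites), over sites that share the same genome background and antibodies within each assay. Only 549 of the sites were among the strongest 1000 eligible regions for WT and 565 for K295A.

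**Figure D4:**
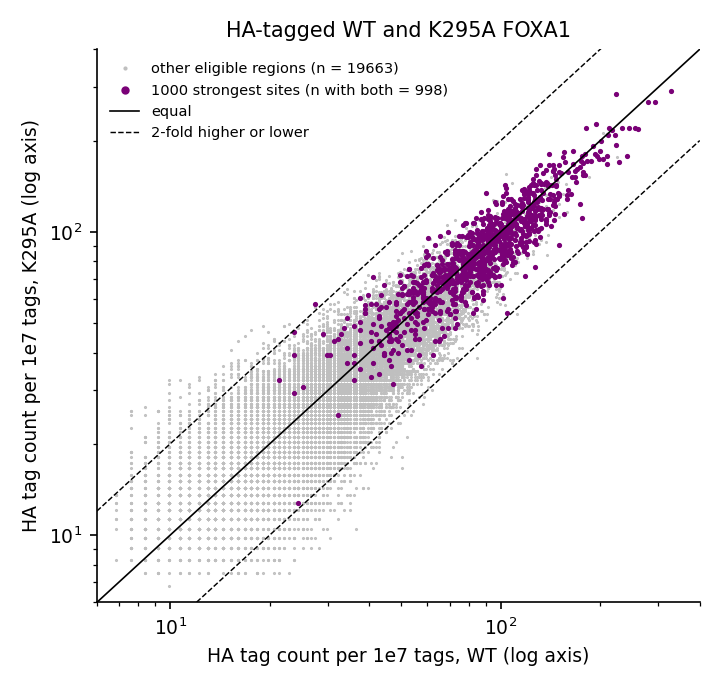
HA tag count of the K295A library (y) against the WT library (x), per 10000000 tags on log axes, for the 998 strongest sites with both peaks and 19663 other eligible regions with both. The solid line marks equal counts and the dashed lines 2-fold differences. Outside the dashed lines lies 1 of the strongest sites, and 97.8% of the other regions lie within them.

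The sites with the most unequal HA counts were few, and not all were weak in HA. The WT counts of 104.6 and 101.5 given here lie above the site median of 88.15. The lowest ratio was at chr6:138548509-138548917, with a count of 104.6 for WT and 54.2 for K295A, a ratio of 0.518 (95% interval from counting error 0.384 to 0.695). It was followed by chr1:120168726-120169092, with 24.4 and 12.8, and chr17:17886149-17886518, with 101.5 and 60.3. The highest ratio was at chr16:14518472-14518848, with 27.5 for WT and 58.0 for K295A, a ratio of 2.11 (1.40 to 3.23), followed by chr6:51981066-51981437, with 23.7 and 46.7; the third lies on chromosome 8. The extremes were picked from 998 ratios, which these intervals do not take into account. At chr9:70837309-70837678 neither protein had a peak over the site, although FOXA1 counts were 175.5 and 106.2 with DMSO. The nearest WT and K295A peak centres lay 512 and 507 bases from its middle, with HA counts of 55.7 and 61.0. At chr1:207489820-207490209 only K295A had a peak, with a count of 25.6, and the nearest WT peak, with 25.9, was centred 454 bases away.

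The peaks at the sites were sharply placed. The 8 FOXA1 peak centres of a site spread over a median of 42 bases, beside 49 bases in the next 1000 regions and 77 bases in all other eligible regions, and lay within 100 bases of each other at 95.2% of sites and 69.5% of other regions. The number of tags per peak moved with this spread, and its part was not tested. The WT HA centre was a median of 13.6 bases, and the K295A centre 12.6 bases, from the mean FOXA1 centre, and 17 bases from each other. No site held more than 1 peak of any library, and the merged regions had a median width of 384 bases (410 at the other regions). The focus ratio, HOMER's fraction of a peak's tags that lie on the side of the centre fitting their strand, had medians of 0.920 to 0.934 per library at the sites and 0.871 to 0.900 at the other regions. Median fold over the local window was 32.0 to 66.2 at the sites and 13.6 to 28.0 elsewhere. Median fold over input was 37.1 to 90.7 and 16.6 to 38.9. These measures come from the same tags as the tag count and were not tested.

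The sites were scattered but not evenly. The nearest other region called in all 8 libraries was a median of 22856 bases away. This was 27339 bases for the next 1000 regions and 31772 bases for the other eligible regions. To the nearest region called in both DMSO libraries, these medians were 11766, 12914.5 and 13384.5 bases. The nearest other strong site was a median of 615141 bases away, beside 709229 and 900578 bases. Within 50000 bases of another strong site were 99 sites, in 47 chains, and 901 stood alone. That share was 9.9%, beside 8.0% of the next 1000 regions and 5.4% of the other eligible regions. Chains of 3 lay at chr1:161424387-161439547, chr6:138548509-138580548, chr15:89639964-89673300 and chr15:93157586-93197744, and another on chromosome 8. The chr6 chain begins with the site that had the lowest K295A over WT ratio.

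The sites at both ends of the chr1 chain had high input, the unprecipitated chromatin library against which FOXA1 peaks were called. These sites, chr1:161424387-161424755 and chr1:161439182-161439547, came directly after chr9:68420524-68420900, which had the highest input of all 1000. Input at the other sites of the chains is not given here. Their mean deposited input tags over the 8 lists were 18.6 and 17.8, beside 19.4 at the chr9 site, whereas the median per library over the 1000 sites was 1.6 to 3. The chr1 pair also split by replicate number. At chr1:161424387-161424755 the tag counts were 133.8, 127.9, 144.8 and 48.1 with DMSO, EPZ-6438, P5091 and the combination in replicate 1 and 218.3, 164.2, 213 and 236.7 in replicate 2. At chr1:161439182-161439547 they were 133.8, 136.3, 150.7 and 53.8 in replicate 1 and 216, 187, 203.4 and 253.3 in replicate 2. The part of input in the rank of these 3 sites was not tested.

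The replicate number was visible across the whole set. Over the 1000 sites, log2 tag counts of libraries with the same replicate number correlated at Pearson r = 0.72 to 0.90 (9 pairs without combination replicate 1), and those with different numbers at 0.53 to 0.67 (12 pairs), DMSO with DMSO included. Combination replicate 1 correlated at 0.66 to 0.72 with its own replicate number and at 0.69 to 0.78 with replicate 2 libraries. All these pairs share the same sites, and same-number libraries also share fragment length. At the other eligible regions, the ranges were 0.75 to 0.90 for same-number pairs and 0.67 to 0.80 for different numbers. The 2 DMSO libraries correlated at 0.65 over the sites and at 0.80 over the other eligible regions. The sites were chosen on the mean of these 2 libraries, and the part of that choice was not tested.

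The share of eligible regions that were strong sites differed between chromosomes. It was 4.22% over all autosomes (exact 95% binomial interval 3.97% to 4.48%). Chromosome 13 had the lowest share, with 8 of 580 regions (1.38%, 0.597% to 2.70%), followed by chromosome 2 with 51 of 1851 (2.76%, 2.06% to 3.61%). Chromosome 19 had the highest, with 26 of 392 (6.63%, 4.38% to 9.57%), followed by chromosome 17 with 50 of 781 (6.40%, 4.79% to 8.35%) and chromosome 11 with 67 of 1181 (5.67%, 4.42% to 7.15%). Chromosome 4 had 42 of 1438 (2.92%, 2.11% to 3.93%) and chromosome 1 had 125 of 2329 (5.37%, 4.49% to 6.36%). The intervals of chromosomes 13, 2 and 4 lie below the overall share, those of chromosomes 19, 17, 11 and 1 lie above it, and those of the other 15 include it.

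The chromosome shares moved with input. The mean input tags at the other eligible regions, as deposited for DMSO replicate 1, were 1.77 on chromosome 13 and 3.23 on chromosome 19. Over the 22 chromosomes, the share of strong sites and the mean input at the other regions had a Pearson r of 0.73 with the DMSO input, 0.75 with the EPZ-6438 input, 0.82 with the P5091 input and 0.69 with the combination input, and Spearman's rho was 0.64, 0.54, 0.75 and 0.58. The points are whole chromosomes of 1 cell line, and their copy number and base composition were not analysed here. The part of input level in the chromosome shares was not tested.

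**Figure D5:**
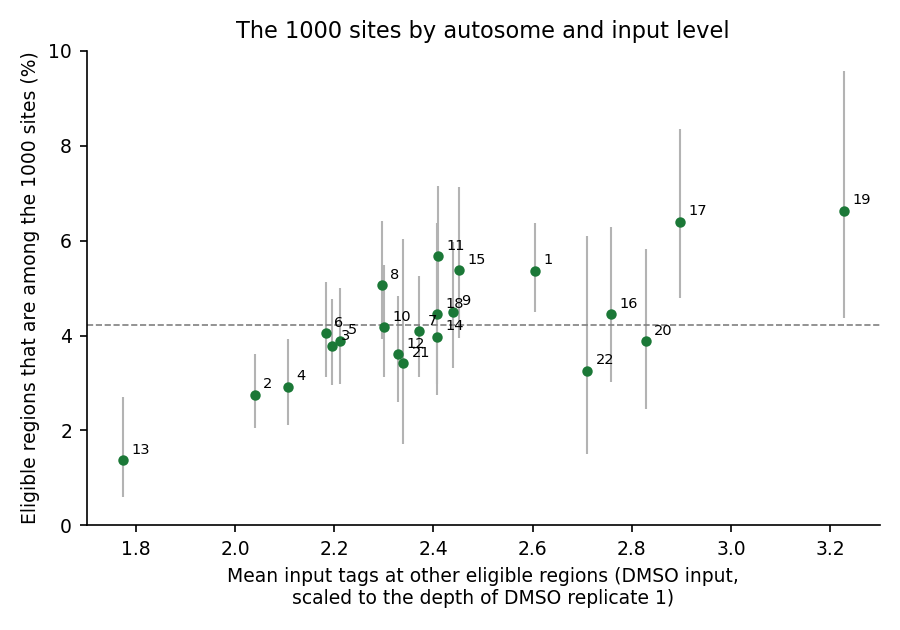
Percent of eligible regions that are among the 1000 strongest sites (y) against the mean input tags at the other eligible regions (x, DMSO input scaled to the depth of DMSO replicate 1), 1 point per autosome with its number; bars are exact 95% binomial intervals. The dashed line is the overall share of 4.22%; chromosome 13 is lowest at 1.38% and chromosome 19 highest at 6.63%.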

How the data were processed

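The 1000 sites and the comparisons were chosen with earlier results of these data known. Bowtie2, HOMER 4.2 and hg19 are named in the submitters' processing notes. The authors called peaks library by library with findPeaks, per the file headers (factor style, FDR 0.001, 4-fold over a 10000-base local window and, for FOXA1, 4-fold over 1 input per treatment). The deposited normalized tag count is a signal value per 10000000 tags. The deposited focus ratio is a fraction, the deposited findPeaks score served for a stricter HA list, and the fold over local window and over input is the authors' ratio. The deposited tag count of 3 libraries is a whole-number count; recovered whole tags of all 8 libraries were used for edgeR.

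From these values, peaks were merged and each library was given its highest peak per region. The main fit was limma 3.58.1 (R 4.3.3) on log2 (tag count + 1) with all 4 groups, at an adjusted p of 0.05; edgeR 4.0.16 was an alternative. The limma code was also run on simulated data with independent noise of limited spread and large added changes. Those data had no shared replicate effect and no weak library, so they do not show how the fits perform on these libraries. Deviations from group means correlated at 0.15 to 0.49 in all 6 same-number comparisons, so the replicate numbers were taken to pair libraries. The comparisons that involve the combination had the lowest of these values, 0.15 to 0.22. Medians were compared with exact two-sided permutation tests. Sites named are the 10 strongest, those just inside and outside the limit, those with extreme HA ratio, without an HA peak, with the smallest p per contrast, with the lowest treated rank and with the highest input; sites called with block and centring were added after their values were seen. Sites on chromosome 8 are counted but not named.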

Additional observations from a re-analysis of the deposited data

How the results depend on the processing

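Counts of called sites depended on the block, the centring and the library left out. With the replicate block alone, 0 of the 1000 sites were called in each contrast. Block and centring together (the replicate block after subtracting library medians) called 1 site for EPZ-6438 against P5091 and 26 for the combination against P5091 (8 and 205 of all 24242 regions). The replicate block with edgeR called 1 and 17 (32 and 145), and with quantile normalization 0 and 2 (0 and 24) (edgeR with block, quantile with block and the block fits that leave out a library were added after seeing the data). Leaving out 1 library in turn gave 0 sites for EPZ-6438 against P5091, 0 to 986 for the combination against EPZ-6438 and 0 to 999 for the combination against P5091, beside 0, 0 to 15640 and 0 to 16001 of all regions. With block and centring these ranges were 0 to 2, 0 to 5 and 0 to 107, beside 0 to 38, 0 to 26 and 0 to 816 of all regions. An arm with 1 library left was assumed to vary like the other groups. Centring, quantile normalization, a pseudocount of 5, edgeR without the block, the contrast's own libraries alone, regions called in at least 6 libraries, and the upper part of regions by mean tag count called 0 sites in all 3 contrasts. The difference in median log2 tag count kept its direction under every alternative run, which did not include quantile normalization. For the combination against P5091 it was -0.25 after centring, -0.93 with the replicate block, and -0.31 without combination replicate 1. With tag counts scaled to 300 bases of peak, it was -0.70 for that contrast. On that scale it was -0.53 for the combination against EPZ-6438 and -0.17 for EPZ-6438 against P5091. After quantile normalization, the median limma change over the sites was -0.045 for EPZ-6438 against P5091. That median was -0.021 for the combination against EPZ-6438 and -0.049 for the combination against P5091. In the same order, it was -0.143, -0.127 and -0.253 after centring. With 500 sites, both HA shares were 100% and the median log2 K295A over WT ratio was -0.036; ranked on DMSO replicate 2 alone, the K295A share was 100%. The cause of these changes was not tested. Depth limits the weakest values, with as few as 28 tags at a site in combination replicate 1.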
